A study of Mus musculus with 4 samples.

Results

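The D cyclins Ccnd1, Ccnd2 and Ccnd3, their kinases Cdk4 and Cdk6, and the inhibitors Cdkn1b, Cdkn2a, Cdkn2b, Cdkn2c and Cdkn2d were followed across the cell types and genotypes of the fetal mouse lung. These 10 genes of 55471 in the count matrices were taken by symbol, and all 10 were found. The set was chosen by the genotype differences measured in these libraries, namely the rise of Ccnd1 in mutant mesenchyme and of Ccnd2 in mutant alveolar type 2 cells. Genotype differences of the 10 genes in mesenchymal and alveolar type 2 cells are therefore given as descriptions, without p-values. The libraries are single-cell 3′ RNA counts of whole embryonic lung at E18.5, dissociated with collagenase, DNase and dispase and cleared of red blood cells. Of the 4 libraries, 2 are labelled wild type and 2 are titled Dnmt1 CKO and carry Tbx4-rtTA and Tet-O-Cre together with the allele Dnmt1-D/D. In such mice a Tbx4 promoter drives a doxycycline-dependent activator in lung mesenchyme, which switches on Cre, and Cre deletes part of Dnmt1. The labels give no doxycycline schedule, leave the deleted exons unnamed, and are silent on whether wild type embryos carried any transgene.

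D cyclins are the growth factor-responsive partners of Cdk4 and Cdk6, and the active complexes phosphorylate the retinoblastoma protein so that E2F factors can drive entry into S phase. The INK4 proteins (Cdkn2a, Cdkn2b, Cdkn2c and Cdkn2d) bind Cdk4 and Cdk6 and block their pairing with a D cyclin, while Cdkn1b (p27Kip1) mainly inhibits Cdk2 complexes and can be held by cyclin D complexes. Dnmt1 copies CpG methylation onto newly made DNA strands. Cdkn2a is a well-known locus kept silent in embryonic tissue, and whether methylation has a part in this was not tested here. Cdkn2a encodes p16Ink4a and, in another reading frame, p19Arf, and counts of 3′ tags cannot tell these transcripts apart.

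The 4 libraries held 6284 to 7820 cell barcodes and 48213065 to 56760219 UMIs, any pair shared 8 to 16 barcodes, and 4323 to 5675 cells per library were kept. Values are UMIs of a gene per 1000000 UMIs of a cell class in a library (CPM), given in the order wild type 1, wild type 2, Dnmt1 CKO 1, Dnmt1 CKO 2, so n = 2 libraries per genotype. Such sums cannot tell fewer expressing cells from less RNA per cell, and 3′ tags do not allow levels of different genes to be compared. Nothing in the labels says that libraries came from separate embryos, so p-values refer only to how far these libraries spread, which may be technical. Mesenchymal-like cells numbered 2812, 2564, 2579 and 2796, and their makeup differed between genotypes. Wild type libraries held 1893 and 1743 matrix fibroblast-like cells, against 134 and 451 in the mutants, while a cluster led by Saa3 and the germline gene Dazl, left unnamed, held 1 and 2 wild type and 1363 and 1313 mutant cells. Dnmt1 itself was at 27.1, 25.5, 9.22 and 12.7 CPM in mesenchymal-like cells. In mesothelial-like cells it was at 52.2, 49.3, 9.50 and 18.2 CPM, and in alveolar type 2-like cells at 19.0, 17.2, 23.9 and 14.8 CPM. Because 3′ tags may lie outside the deleted part, these levels do not check the deletion.

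Of the 10 genes, 8 had a RefSeq promoter entry, with 11 entries in all; Ccnd1 and Ccnd2 had none. The 4 shown here belong to the INK4 genes whose levels differ most between cells and genotypes below. Each is the 250 bases upstream of a RefSeq start on GRCm38.p6, on the minus strand, written 5′ to 3′. Capitals mark CpG dinucleotides, and whether these were methylated was not measured. Cdkn2a has 2 starts, of which the upstream one at chr4:89294620-89294869 is that of the p19Arf transcript and the one at chr4:89282193-89282442 that of p16Ink4a. Cdkn2b, the neighbouring gene, starts below chr4:89311033-89311282, and the first start of Cdkn2c lies below chr4:109666757-109667006.
Cdkn2a upstream start: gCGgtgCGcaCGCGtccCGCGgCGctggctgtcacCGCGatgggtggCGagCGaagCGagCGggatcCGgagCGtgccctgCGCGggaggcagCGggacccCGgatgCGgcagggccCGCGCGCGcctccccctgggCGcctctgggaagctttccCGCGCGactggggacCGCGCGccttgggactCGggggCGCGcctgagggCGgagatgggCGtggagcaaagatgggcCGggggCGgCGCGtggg
Cdkn2a downstream start: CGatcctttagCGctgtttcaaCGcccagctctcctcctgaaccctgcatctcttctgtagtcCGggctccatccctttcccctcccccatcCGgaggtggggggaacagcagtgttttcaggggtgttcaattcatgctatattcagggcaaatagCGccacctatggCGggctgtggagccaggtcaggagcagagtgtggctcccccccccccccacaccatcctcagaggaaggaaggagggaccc
Cdkn2b: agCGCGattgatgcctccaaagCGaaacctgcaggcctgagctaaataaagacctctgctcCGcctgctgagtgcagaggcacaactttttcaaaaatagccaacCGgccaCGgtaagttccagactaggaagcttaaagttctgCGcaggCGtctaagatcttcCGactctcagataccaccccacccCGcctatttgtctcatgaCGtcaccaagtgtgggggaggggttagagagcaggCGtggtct
Cdkn2c first start: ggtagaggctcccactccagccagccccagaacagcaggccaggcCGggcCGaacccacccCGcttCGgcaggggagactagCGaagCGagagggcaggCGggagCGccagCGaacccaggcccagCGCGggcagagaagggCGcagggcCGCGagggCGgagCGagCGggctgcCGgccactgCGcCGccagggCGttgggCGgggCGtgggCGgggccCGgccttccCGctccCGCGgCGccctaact
The upstream Cdkn2a start had 40 CpG dinucleotides, more than 98.69% of the 32851 RefSeq promoters of this length, and the downstream start had 7. Cdkn2c had 29 at its first start and 6 at its second, and Cdkn2b had 12. The other entries held 28 (Cdkn1b), 22 (Cdk6), 16 (Cdkn2d), 13 (Cdk4) and 11 and 19 (Ccnd3). Over all promoters the median was 6, with quartiles of 2 and 16. An E2F-like motif, TTTNNCGC on either strand, was found once at both Cdkn2a starts and once at Cdk6, and 4.28% of all promoters hold it. The cell cycle motif TTTGAA was found once at Cdkn2b, and 15.99% of all promoters hold it. These are matches of letters, and no methylation or binding was measured here.

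In the annotation on GRCm38, Ccnd1 spans chr7:144929931-144939925 and Ccnd2 chr6:127125162-127152193, both on the minus strand. The 5 members Ccnd1 (LTO1), Ccnd2 (Gm43126 and 9330179D12Rik), Ccnd3 (Bysl), Cdk4 (Tspan31) and Cdk6 (Gm17590 and Gm42435) overlap a gene on the other strand. Whether the authors' counting used strand is not given in the sources used here, so a share of these members' UMIs from the partner gene cannot be told apart. The INK4 genes and Cdkn1b overlap no other gene.

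In mesenchymal-like cells all 10 genes passed the filter on low counts, Cdkn2a through the mutant libraries only. In the fit over all genes (edgeR quasi-likelihood test, Benjamini-Hochberg adjusted p under 0.05, here named a call) 4 members were past the threshold and higher in the mutants, namely Ccnd1, Ccnd2, Cdkn2a and Cdkn2c, with none lower. Of the 16140 genes in that fit 13.3% were called, 7.34% higher. The members were chosen on this comparison, so their calls in mesenchymal and alveolar type 2 classes are a description and no test, and nothing is read from the counts. In 7 members the 2 mutant libraries lay outside the range of the wild type libraries, 6 higher and 1 lower, beside 57.4% of all genes (31.2% higher and 26.2% lower). The median log2 difference of the 10 genes was 0.67, beside 0.0019 for all genes tested.

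Ccnd1, the growth factor-responsive D cyclin, stood at 10.5, 9.57, 63.7 and 60.7 CPM in mesenchymal-like cells, from 181, 194, 1277 and 1036 UMIs. Both mutant libraries lay far above both wild type libraries, and the log2 difference was 2.60 (SE 0.191). Among cells thinned to 3000 UMIs, at least 1 Ccnd1 UMI was found in 2.63% (95% exact binomial interval 2.05 to 3.32) and 1.99% (1.47 to 2.63) of wild type cells. In the mutants the share was 12.9% (11.6 to 14.3) and 12.1% (10.8 to 13.4). Before thinning the shares were 4.80%, 4.95%, 23.0% and 18.6%, at median depths of 5946, 7648, 7274 and 5814 UMIs. For comparison, the wild type class with the least Ccnd1, the matrix fibroblast-like cells, had 1.45% and 1.09% of thinned cells with a UMI, at median depths of 6128 and 7782. The intervals cover counting error only, and 188, 150, 142 and 300 cells shallower than 3000 UMIs were left out.

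Ccnd2, a D cyclin that many tissues use beside Ccnd1, stood at 173, 135, 384 and 338 CPM, a log2 difference of 1.21 (SE 0.217). The genotypes did not overlap. The thinned share of cells with a Ccnd2 UMI was 25.8% and 21.1% in wild type and 55.7% and 48.7% in the mutants. Ccnd3 was level, at 152, 132, 144 and 127 CPM, with a log2 difference of -0.08 (SE 0.191), and its genotypes overlapped. Of the 3 D cyclins, Ccnd1 thus had the largest difference and Ccnd3 the smallest.

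**Figure D1:**
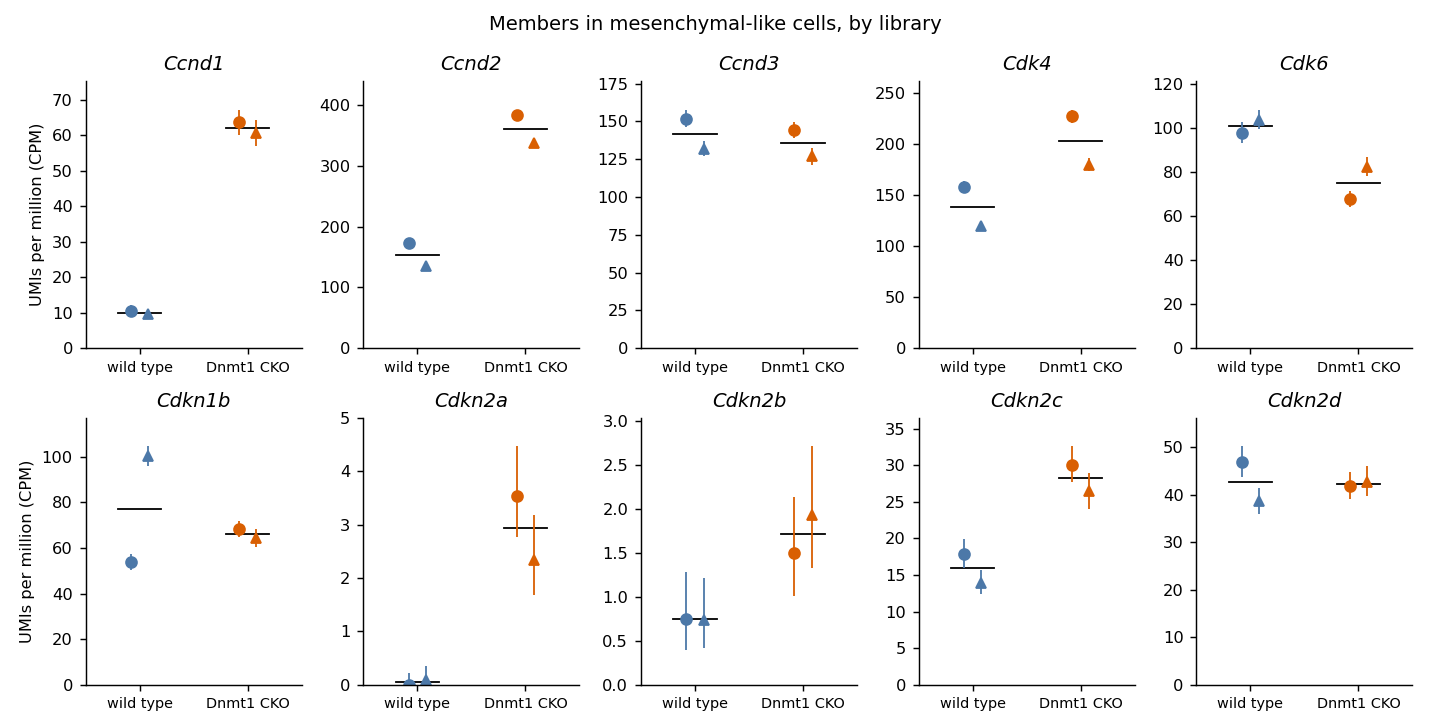
CPM in mesenchymal-like cells for each of the 10 genes, 1 point per library (circle for replicate 1, triangle for replicate 2). Exact binomial 95% intervals cover counting error only, and a bar is at the mean of the 2 libraries. Ccnd1 averages 10.0 in wild type and 62.2 in the mutants, Cdkn2a is at or near 0 in wild type, and Cdkn1b is set apart by wild type 2.

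Of the 2 kinases, Cdk4 was at 158, 120, 227 and 179 CPM, and both mutant libraries were above both wild type libraries. Its log2 difference of 0.53 (SE 0.223) was not called. Wild type 1 exceeded wild type 2 for Cdk4 in 11 of 12 classes, and mutant 1 exceeded mutant 2 in 9 of 12, so libraries as well as genotypes were ordered. Cdk6 was at 97.9, 104, 67.9 and 82.4 CPM, lower in both mutant libraries, with an uncalled log2 difference of -0.44 (SE 0.185). The kinases therefore pointed in opposite directions in mesenchyme.

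Among the inhibitors, Cdkn2a had 0 and 2 UMIs in the wild type libraries and 71 and 40 in the mutants, or 0, 0.0987, 3.54 and 2.34 CPM. The pooled ratio was 56.1, with a counting interval of 15.2 to 469. Such intervals pool the libraries of a genotype, leave out the spread between libraries and are no test. Even in the mutants these are few UMIs for 2579 and 2796 cells. Cdkn2c (p18Ink4c) was at 17.9, 13.9, 30.1 and 26.4 CPM, a log2 difference of 0.81 (SE 0.213) with no overlap. It dropped below the threshold without wild type 2, and again without Dnmt1 CKO 1. Such a fit leaves 1 library in a genotype, which is then assumed to vary like the other genotype. Cdkn2b (p15Ink4b) was rare, with 28 UMIs in wild type and 63 in the mutants, at 0.752, 0.740, 1.5 and 1.93 CPM and a pooled ratio of 2.28 (counting interval 1.44 to 3.69). Cdkn2d (p19Ink4d) was level at 46.8, 38.6, 41.9 and 42.7 CPM. Cdkn1b was at 53.9, 100.1, 68.3 and 64.3 CPM, so both mutant libraries lay between the 2 wild type libraries. Wild type 2 held the highest Cdkn1b of the 4 libraries in 12 of 12 classes.

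Cells with mitosis transcripts (at least 2 of 20 mitosis genes detected in 3000 UMIs) in the mesenchymal-like class numbered 142 of 2624, 66 of 2414, 293 of 2437 and 221 of 2496 cells. Among cells with none of the 20, Ccnd1 was at 9.64, 8.12, 57.6 and 63.9 CPM, with no overlap of genotypes; such cells can still be in G1 or S phase. Ccnd2 in these cells was at 175, 132, 426 and 369 CPM. Cdkn2a was at 0, 0, 1.41 and 1.17 CPM in cells with none and at 0, 0, 14.3 and 8.86 CPM in cells with mitosis transcripts. Cdkn2c was at 10.8, 11.7, 16.2 and 16.3 CPM in cells with none and at 106, 69.9, 108 and 107 CPM in cells with mitosis transcripts. In cells with none, both mutant libraries were still above both wild type libraries for Cdkn2c. The part of the higher number of mitotic cells in the summed Cdkn2c difference was not tested.

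Ccnd1 was not evenly placed within the mesenchyme. The mutant-only Saa3 and Dazl cluster held it at 63.0 and 79.2 CPM. A cycling cluster led by genes such as Prc1, Cenpf and Top2a, also unnamed, had 11, 6.91, 79.1 and 39.7 CPM. Pericyte-like cells, the contractile cells on capillaries, had 21.2, 15.6, 156 and 62.4 CPM, a log2 difference of 2.52 (SE 0.379). In the pericyte-like class Ccnd1 was the 1 member called of 7 tested, beside 2.43% of all genes. Myofibroblast-like cells had 10.2, 11.1, 27.4 and 24.2 CPM and adventitial fibroblast-like cells 38.7, 28.3, 45.0 and 95.1 CPM, with no overlap of genotypes in either. Matrix fibroblast-like cells stayed lowest, at 4.49, 4.12, 13.1 and 5.36 CPM, and few of them remained in the mutants. Smooth muscle-like cells had 68.5, 55.3, 69.5 and 55.2 CPM, with a log2 difference of 0.02 (SE 0.245). That class joins 2 clusters in different proportions: cluster 19 (54, 45, 39 and 55 cells) had 87.2, 72.5, 99.9 and 172 CPM, and cluster 11 (19, 34, 338 and 280 cells) had 15.1, 29.6, 66.3 and 33.4 CPM. In the 2 wild type libraries cluster 11 gave only 2 and 9 Ccnd1 UMIs.

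Ccnd2 was higher in both mutant libraries in matrix fibroblast-like cells (113, 76.3, 252 and 155 CPM), myofibroblast-like cells (88.9, 92.7, 241 and 112 CPM) and adventitial fibroblast-like cells (296, 253, 476 and 372 CPM). It was highest in pericyte-like cells, at 719, 642, 704 and 814 CPM, and there the genotypes overlapped. Smooth muscle-like cells had 429, 245, 352 and 316 CPM and the cycling cluster 142, 83.0, 149 and 118 CPM, also overlapping. The Saa3 and Dazl cluster had 421 and 418 CPM in the mutants. Genotypes were thus separate for Ccnd2 in the 3 fibroblast-like classes and not in the pericyte-like, smooth muscle-like or cycling cells, and whether the difference itself varies between classes was not tested.

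In smooth muscle-like cells 2 of 8 members tested were called, both lower, beside 9.42% of all genes (4.80% lower). Ccnd3 was at 174, 188, 90.9 and 101 CPM, a log2 difference of -0.91 (SE 0.204). Within the class Ccnd3 was at 181, 194, 91.9 and 97.6 CPM in cluster 11 and at 172, 184, 81.4 and 122 CPM in cluster 19, lower in the mutants in both. Cdk6 was at 145, 120, 69.9 and 70.3 CPM, a log2 difference of -0.90 (SE 0.213). For Cdk6 the clusters differed from each other. Cluster 19 (54, 45, 39 and 55 cells) had 172, 156, 133 and 182 CPM, with the genotypes overlapping. Cluster 11 (19, 34, 338 and 280 cells) had 68.0, 65.8, 63.1 and 49.4 CPM, lower in both mutants. The part of this cluster mix in the class difference of Cdk6 was not tested. In pericyte-like cells Cdk6 was at 354, 409, 159 and 260 CPM, lower in both mutants and not called.

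No member was called in adventitial fibroblast-like (0 of 8, beside 1.75% of genes, 1.23% higher and 0.515% lower), matrix fibroblast-like (0 of 8, beside 0.342%) or myofibroblast-like cells (0 of 8, beside 0.483%) by edgeR. Cdkn2a passed the filter in none of the named mesenchymal classes. Its largest counts were in the cycling cluster, with 0, 0, 43 and 19 UMIs, or 17.0 and 11.8 CPM in the mutants. Against an assumed floor of 3 UMIs over both wild type libraries the mutants were 7.44-fold higher. The counting interval of the pooled ratio started at 5.87 and had no upper end. Pericyte-like cells had 0, 0.782, 1.44 and 8.91 CPM of Cdkn2a, from 1 wild type and 7 mutant UMIs (ratio 12.6, counting interval 1.62 to 568). Of the 7 mutant UMIs, 6 were in Dnmt1 CKO 2, a spread that the interval leaves out.

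Dazl, a germline gene that DNA methylation keeps silent in body cells, was used to split the mutant mesenchyme. With a Dazl UMI at 3000 UMIs there were 1 wild type cell in each library, 1333 cells in mutant 1 and 1205 in mutant 2, and 867 and 1135 mutant cells had none at full depth. Ccnd1 was at 79.1 and 85.7 CPM in mutant cells with Dazl and at 40.1 and 33.8 CPM in those without, a mean log2 ratio of 1.16 (SD 0.257 over the 2 libraries). Wild type cells without Dazl were at 10.4 and 9.40 CPM, below both mutant groups. Ccnd2 was at 436 and 413 CPM with Dazl and 313 and 261 without (mean log2 ratio 0.57, SD 0.128). Ccnd3 went the other way, at 121 and 112 CPM with and 178 and 143 without (-0.45, SD 0.144). Cdkn2a was at 4.23 and 3.51 CPM with Dazl and 2.08 and 1.09 without, from 72 and 23 UMIs. Cdkn1b was at 80.1 and 71.7 CPM with and 55.1 and 55.6 without, and Dnmt1 at 5.28 and 5.39 with and 15 and 21.4 without. Cdk4, Cdk6, Cdkn2b, Cdkn2c and Cdkn2d had mean log2 ratios between -0.22 and 0.21. The cells with and without Dazl also differ in cell type, and the part of either in these ratios was not tested.

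In alveolar type 2-like cells, the surfactant-making epithelial cells, Ccnd2 stood at 46.1, 39.4, 132 and 86.4 CPM, from 481, 415, 851 and 1118 UMIs. Both mutant libraries lay above both wild type libraries, and the log2 difference was 1.31 (SE 0.234). The 2 clusters of this class showed the same order: cluster 8 had 44.6, 39.3, 133 and 89.9 CPM and cluster 10 had 51.5, 39.7, 125 and 68.8 CPM. At 3000 UMIs, 14.5%, 10.7%, 32.0% and 21.1% of 386, 354, 225 and 574 cells had a Ccnd2 UMI. Before thinning the shares were 45.1%, 40.8%, 64.2% and 53.2%, at median depths of 12670, 15760, 14540 and 12180 UMIs. Macrophage or monocyte-like cells, the class lowest in Ccnd2, had 3.81%, 3.33%, 3.94% and 5.82% at 3000 UMIs, at median depths of 6071 to 9206 UMIs. By edgeR 0 of the 9 members tested were called, as were 0 of 13576 genes (0% background), of which 466 had an unadjusted p under 0.05. DESeq2 called 18 genes in this class, 1 of them a member (Ccnd2), which is a description too.

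Markers of other cells were read beside this Ccnd2 difference. The 8 secretory airway markers summed to 517, 452, 1249 and 1216 CPM in alveolar type 2-like cells, with at most 1 of the 8 at 0 in a library, and secretory airway-like cells themselves had 306, 325, 447 and 292 CPM of Ccnd2. The 12 alveolar type 2 markers summed to 106400, 109800, 80020 and 112700 CPM, lowest in mutant 1. The 7 general mesenchymal markers summed to 97.8, 199, 144 and 174 CPM, against 10150 to 13840 CPM in mesenchymal-like cells. Dazl, at 500 and 538 CPM in mutant mesenchymal-like cells, was at 4.50 and 6.42 CPM in mutant alveolar type 2-like cells. The part of these other cells' RNA in the Ccnd2 difference was not tested.

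The other members moved less in alveolar type 2-like cells. Cdkn2b, high in this epithelium, was at 87.4, 82.8, 54.4 and 71.0 CPM, lower in both mutants (log2 difference -0.46, SE 0.213). Cdk6 was at 30.5, 30.2, 44.4 and 33.2 CPM, higher in both mutants (0.31, SE 0.218). These 2 and Ccnd2 were the members without overlap, beside 27.1% of all genes. Ccnd1, at 20.3, 28.5, 22.5 and 47.5 CPM, Ccnd3, Cdk4, Cdkn1b, Cdkn2c and Cdkn2d overlapped between genotypes. Cdkn2a did not pass the filter and had 7 wild type and 5 mutant UMIs.

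The rule that chose the genes named no genotype difference in the remaining classes, and these were tested. Earlier results of these data were known when the genes were chosen. Alveolar type 1-like cells, the flat gas-exchange cells, had Ccnd2 at 47.9, 26.6, 104 and 75.4 CPM, with no overlap. The log2 difference of 1.26 (SE 0.282) did not pass the edgeR quasi-likelihood test (adjusted p = 0.135), and this adjusted p ranged from 9.83e-06 to 0.998 over the alternatives. Cdk6 was at 31.8, 24.1, 46.1 and 40.2 CPM (log2 difference 0.62, adjusted p = 0.852), and Cdkn1b at 188, 292, 110 and 173 CPM (-0.73, adjusted p = 0.663). Cdkn2b was at 218, 208, 153 and 186 CPM (-0.31, adjusted p = 0.998). By edgeR 0 of 8 members tested were called beside 0.11% of all genes (0.0702% higher and 0.0401% lower). At an unadjusted p under 0.05 there were 3 of the 8 (Ccnd2, Cdk6 and Cdkn1b), beside 5.38% of all genes. DESeq2 called 0, and Ccnd2 was called by edgeR without Dnmt1 CKO 2, a fit in which 1 mutant library is assumed to vary like wild type. In 5 of the 8 members the genotypes did not overlap, beside 32.5% of genes, with Ccnd2 and Cdk6 higher and Ccnd3, Cdkn1b and Cdkn2b lower.

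Endothelial-like cells had the highest Ccnd1 of the broad classes and no genotype difference that the spread would show, at 498, 567, 470 and 595 CPM (log2 difference 0.03, SE 0.252, edgeR adjusted p = 1.00). Ccnd2 in these cells was at 79.1, 77.4, 115 and 143 CPM, with no overlap (0.75, SE 0.230, adjusted p = 0.777). The capillary part had Ccnd2 at 58.4, 63.5, 105 and 106 CPM (0.83, adjusted p = 0.852). Cdkn1b was at 124, 199, 88.1 and 114 CPM (-0.64, edgeR adjusted p = 1.00). None of the 8 members tested was called by edgeR, beside 0.0631% of genes (0.0552% higher and 0.00789% lower), and 2 (Ccnd2 and Cdkn1b) had an unadjusted p under 0.05, beside 3.93% of genes, while DESeq2 called 0. In 3 of the 8 (Ccnd2 higher, Ccnd3 and Cdkn1b lower) the genotypes did not overlap, beside 28.2% of genes. The capillary part had 0 of 8 members called by edgeR, beside 0.0245% of genes, and 0 of 7 in arterial or venous endothelial-like cells, beside 0.015%, with 2 and 0 members at an unadjusted p under 0.05, beside 3.27% and 3.91% of genes.

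In immune-like cells Cdkn1b was at 110, 118, 80.3 and 65.7 CPM, lower in both mutants (log2 difference -0.58, SE 0.186, edgeR adjusted p = 0.963). Ccnd3, the D cyclin widely used by blood cells, was at 133, 119, 116 and 58.8 CPM, with Dnmt1 CKO 2 set apart (-0.48, SE 0.282, edgeR adjusted p = 0.996). Without Dnmt1 CKO 1, Ccnd3 was past the threshold with a log2 difference of -0.94, but that fit sets Dnmt1 CKO 2 alone against the wild type libraries, which give all of the spread. Ccnd2 stood at 62.4, 55.0, 54.3 and 48.4 CPM. By edgeR 0 of 8 members were called, beside 0.016% of genes, 1 (Cdkn1b) had an unadjusted p under 0.05, beside 4.79% of genes, and DESeq2 called 0. In 5 of the 8 members both mutant libraries were lower (Ccnd2, Ccnd3, Cdk6, Cdkn1b and Cdkn2d), beside 19.1% of genes. Without overlap in either direction were 31.5% of genes, 12.4% being higher. Macrophage or monocyte-like cells had Ccnd3 at 88.9, 76.4, 52.1 and 38.1 CPM (-0.84, SE 0.214, adjusted p = 0.241) and Cdkn1b at 101, 120, 67.1 and 56.2 CPM (-0.81, SE 0.194, adjusted p = 0.213). Ccnd1 in these cells was at 131, 133, 79.1 and 101 CPM (-0.51, SE 0.210, adjusted p = 0.481). These were the 3 of 8 members with an unadjusted p under 0.05, beside 9.7% of genes. In 6 of the 8 the genotypes did not overlap, Cdk4 higher and Ccnd1, Ccnd2, Ccnd3, Cdk6 and Cdkn1b lower, beside 40.4% of genes. None of the 8 was called by edgeR, beside 0.0292% of genes. Neutrophil-like cells had Cdkn2d at 114, 137, 67.5 and 51.2 CPM (-0.99, SE 0.395, edgeR adjusted p = 0.576), with 0 of 6 members called, beside 0% of genes, and 1 at an unadjusted p under 0.05, beside 8.56% of genes.

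Mesothelial-like cells, the lining of the lung, numbered 37, 27, 40 and 67. Cdk6 was at 200, 200, 145 and 121 CPM there (log2 difference -0.62, SE 0.223, edgeR adjusted p = 0.381). Ccnd1 was at 5.40, 72.0, 33.2 and 56.4 CPM, so wild type libraries alone spanned the whole range. Dnmt1 in the same fit had a log2 difference of -1.72 (SE 0.348, adjusted p = 0.0689). Of 8 members tested, edgeR called 0, beside 0.618% of genes (0.492% higher and 0.126% lower), and 1 (Cdk6) had an unadjusted p under 0.05, beside 10.5% of genes, while DESeq2 called 0. Of the 8, Cdk6 was lower and Cdkn2c and Cdkn2d higher without overlap, beside 42% of genes. Whether members differ more by genotype in one class than in another was not tested.

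**Figure D2:**
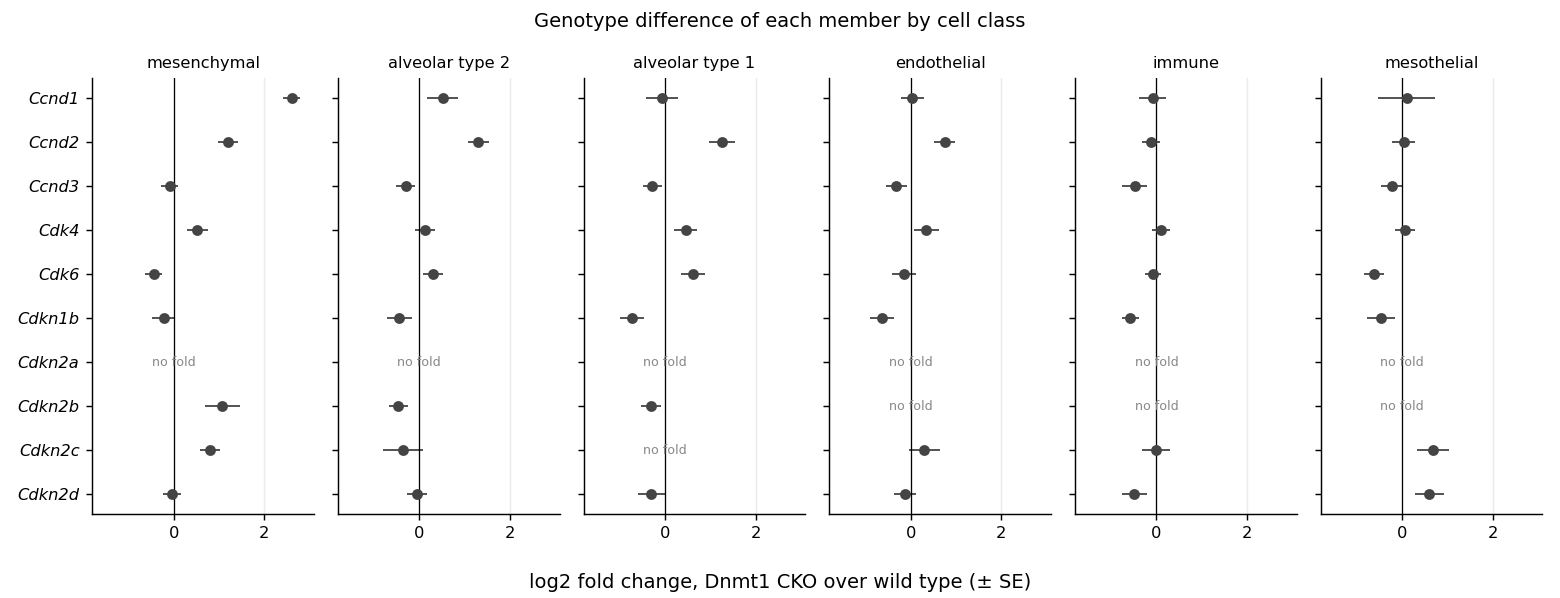
Log2 fold change of Dnmt1 CKO over wild type with its standard error for each gene in 6 cell classes, from edgeR fits to summed counts of 2 libraries per genotype; "no fold" marks genes that did not pass the filter and Cdkn2a, whose wild type counts are near 0. Ccnd1 is at 2.60 in mesenchymal-like cells, while Ccnd2 is at 1.21, 1.31 and 1.26 in mesenchymal-like, alveolar type 2-like and alveolar type 1-like cells.

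Across the 12 classes in wild type lung, each D cyclin had its own order of levels. Ccnd1 was highest in capillary endothelial-like cells (545 and 623 CPM), followed by macrophage or monocyte-like cells (131 and 133 CPM), and lowest in matrix fibroblast-like cells, a range of 136-fold. Only 4 of the 11 neighbouring pairs in that order were separate in both libraries. Between these ends lay smooth muscle-like (68.5 and 55.3 CPM), arterial or venous endothelial-like (40.4 and 59.9 CPM), mesothelial-like and adventitial fibroblast-like cells. Neutrophil-like (23.5 and 19.6 CPM), pericyte-like, alveolar type 1-like (15 and 10.1 CPM) and myofibroblast-like cells were lower. Ccnd2 was highest in pericyte-like cells and lowest in macrophage or monocyte-like cells (22.1 and 23.7 CPM), a range of 29.7-fold, with 5 of 11 neighbours separate. Mesothelial-like cells (356 and 264 CPM) and arterial or venous endothelial-like cells (269 and 214 CPM) were also high in Ccnd2. Capillary endothelial-like cells, first for Ccnd1, were at 58.4 and 63.5 CPM for Ccnd2, below 8 of the other classes. Ccnd3 varied 4.13-fold, from mesothelial-like (364 and 319 CPM) to macrophage or monocyte-like cells (88.9 and 76.4 CPM).

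**Figure D3:**
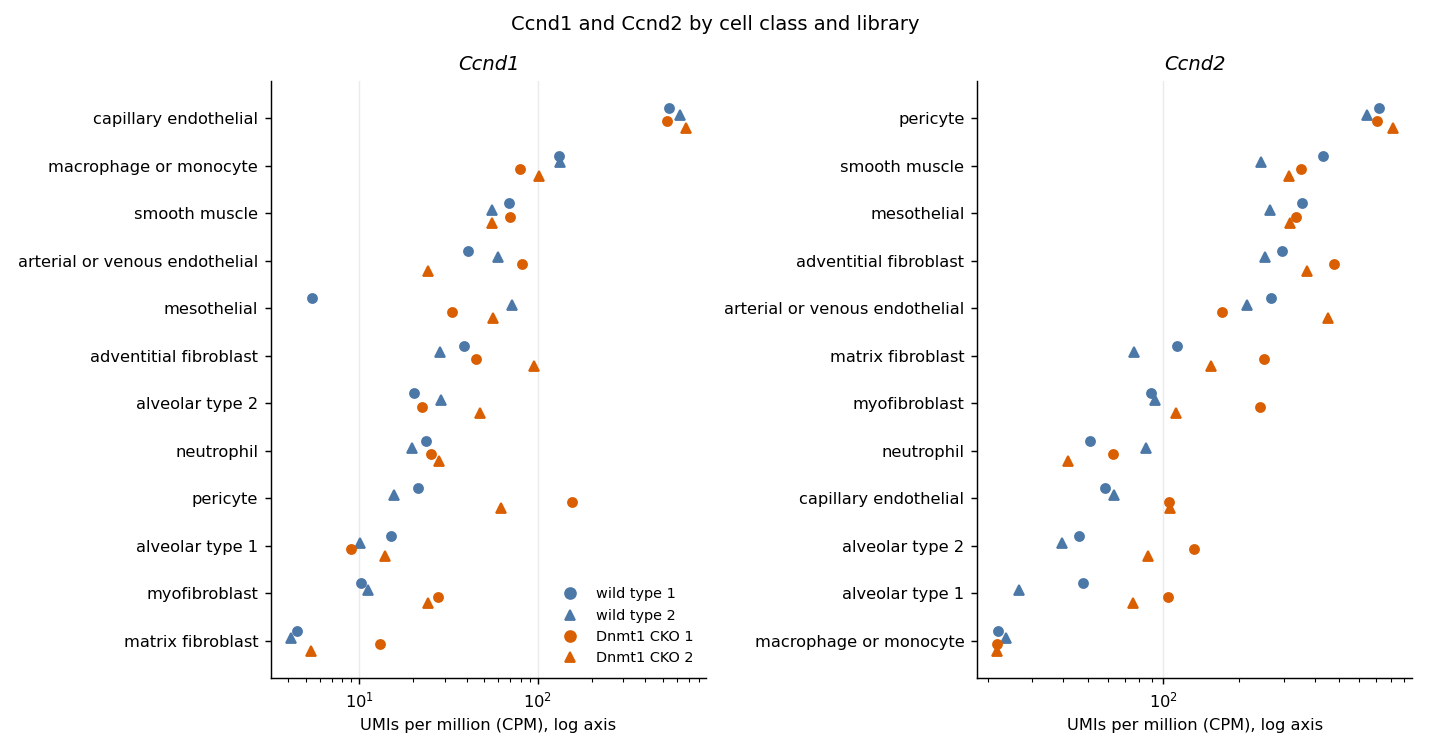
Ccnd1 and Ccnd2 in 12 cell classes, CPM on a log axis, 1 point per library, classes ordered by the wild type mean. Ccnd1 peaks in capillary endothelial-like cells (545 and 623 in wild type), and Ccnd2 in pericyte-like cells (719 and 642).

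The kinases differed in how widely they varied. Cdk4 ranged only 2.80-fold over classes, from mesothelial-like (175 and 208 CPM) to alveolar type 1-like cells (80.5 and 56.3 CPM), and no neighbouring classes were separate. Cdk6 ranged 13.6-fold, from pericyte-like (354 and 409 CPM) and mesothelial-like cells (200 and 200 CPM) to alveolar type 1-like cells (31.8 and 24.1 CPM), with 7 of 11 neighbours separate. In the mutants pericyte-like cells were still highest for Cdk6, with a mean of 209 CPM.

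Among the inhibitors, Cdkn2b was highest in the alveolar epithelium. In wild type, alveolar type 1-like cells had 218 and 208 CPM and alveolar type 2-like cells 87.4 and 82.8 CPM. The few wild type airway cells, outside the 12 classes, had 0 and 0 CPM (secretory) and 0 and 7.45 CPM (ciliated). Within the alveolar type 2-like cells, cluster 8 had 106 and 105 CPM and cluster 10 had 20.3 and 12.8 CPM. A low-UMI epithelial cluster, unnamed, had 293 and 257 CPM from 78 and 94 UMIs. Of the other 10 classes, neutrophil-like cells had 27.4 and 0 CPM from 7 UMIs, and none of the rest exceeded 3.39 CPM. Cdkn2d was highest in neutrophil-like cells (114 and 137 CPM) and lowest in alveolar type 2-like cells, a range of 7.01-fold. Cdkn2c was highest in capillary endothelial-like (27.1 and 18.6 CPM), mesothelial-like (21.6 and 20 CPM) and myofibroblast-like cells (15 and 14.8 CPM), and at 2.11 and 1.43 CPM in alveolar type 2-like cells. Cdkn1b was highest in alveolar type 1-like cells (188 and 292 CPM) and lowest in adventitial fibroblast-like cells (53.6 and 84.3 CPM), a 3.48-fold range in which no neighbours were separate. Cdkn2a stayed at or under 0.782 CPM in all 12 classes of both wild type libraries.

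**Figure D4:**
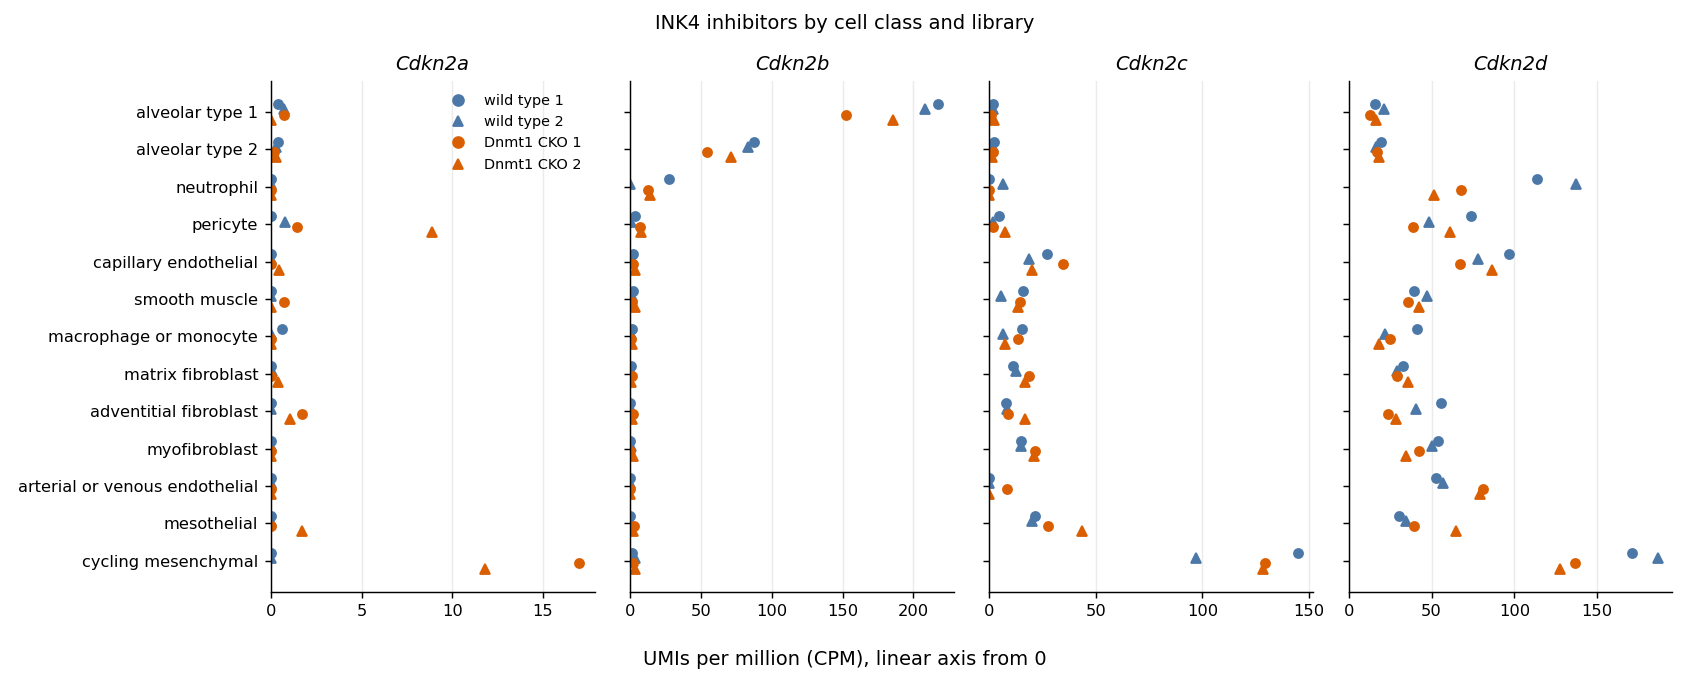
The 4 INK4 inhibitors in 12 cell classes and in the cycling mesenchymal cluster, CPM on a linear axis from 0, 1 point per library. Cdkn2b is highest in alveolar type 1-like cells, followed by alveolar type 2-like cells, Cdkn2c and Cdkn2d are highest in the cycling cluster, and Cdkn2a reaches 17.0 and 11.8 there in the mutants.

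Members were also compared by cell cycle state. Within a broad class the 2 states can differ in their mix of cell types, and the part of cell type was not tested. The contrast of cells with mitosis transcripts against cells with none was not used to choose the genes, and it was tested with edgeR with the library as a block, 4 libraries in each state. In mesenchymal-like cells Cdkn2c rose by a log2 difference of 2.72 (SE 0.124, edgeR adjusted p = 7.15e-10), and Cdkn2d, at 39.8, 34.3, 29.0 and 32.9 CPM without and 132, 140, 116 and 108 CPM with mitosis transcripts, rose by 1.76 (SE 0.0980, adjusted p = 6.87e-09). Both were higher in 4 of 4 libraries with no overlap between states. Cdk4, at 145, 112, 217 and 174 CPM without and 282, 238, 295 and 240 CPM with, rose by 0.62 (adjusted p = 0.000339). Cdkn1b rose by 0.58 (adjusted p = 0.000424), from 53.2, 94.8, 63.1 and 59.0 to 74.8, 182, 89.3 and 99.5 CPM. Cdkn2a passed the filter through the mutant libraries only, with 0 in both states of both wild type libraries, so its values above stand as a description. Ccnd2 fell by 0.81 (SE 0.152, adjusted p = 0.00131), mostly in the mutants, from 175, 132, 426 and 369 to 169, 111, 198 and 158 CPM. Among mutant cells, the Saa3 and Dazl cluster stood above the cycling cluster in Ccnd2, and the part of this in the fall was not tested. Ccnd3 fell by 0.23 (adjusted p = 0.0494) and lost its call under 7 of 9 alternatives, 3 of them the loss of wild type 1, Dnmt1 CKO 1 or Dnmt1 CKO 2. Ccnd1 did not pass (0.18, SE 0.198, adjusted p = 0.562), nor did Cdk6 or Cdkn2b. In all 7 of 10 members were past the threshold, 5 higher (Cdkn2a among them) and 2 lower, beside 24.5% of all genes.

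The same split was tested in the other broad classes with edgeR. In endothelial-like cells 6 of 8 members were called, 4 higher and 2 lower, beside 21.8% of genes. Cdkn2c was at 2.27, 2.35, 7 and 1.43 CPM without and 46.8, 42.0, 56.3 and 37.7 CPM with mitosis transcripts, a log2 difference of 3.72 (SE 0.204, edgeR adjusted p = 3.14e-10). Cdkn2d rose by 1.03 (adjusted p = 2.34e-07) and Cdk4 by 0.62 (adjusted p = 5.53e-06). Ccnd2 fell by 0.71 (adjusted p = 9.26e-06), from 110, 91.3, 130 and 184 to 62.6, 53.8, 91.0 and 111 CPM, and Cdk6 fell by 0.46 (adjusted p = 0.00255). Ccnd1 rose by 0.29 (adjusted p = 0.0160), a call that was lost without Dnmt1 CKO 1 and without Dnmt1 CKO 2.

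In immune-like cells 6 of 8 members were called, 4 higher and 2 lower, beside 31.4% of genes. Cdkn2c rose by 3.47 (edgeR adjusted p = 2.22e-06), Cdkn2d by 0.96 (adjusted p = 0.00101) and Cdk4 by 0.53 (adjusted p = 0.00303). Ccnd3, at 126, 107, 97.6 and 51.6 CPM without and 155, 151, 153 and 95.9 CPM with mitosis transcripts, rose by 0.46 (edgeR adjusted p = 0.0102), a call lost without Dnmt1 CKO 1. Ccnd1 fell by 0.43 (adjusted p = 0.0213) and Ccnd2 by 0.53 (adjusted p = 0.0375). The Ccnd1 call was lost without wild type 2, and the Ccnd2 call without wild type 1 and without Dnmt1 CKO 1. Epithelial-like cells, which here mix alveolar and airway cells, had 22 to 48 cells with mitosis transcripts per library and 2 of 9 members called, beside 14.2% of genes. Cdkn2c rose there by 2.90 (edgeR adjusted p = 0.00257). Cdkn2b fell by 1.48 (adjusted p = 0.0273), from 113, 103, 73.8 and 73.6 to 84.0, 13.6, 27.8 and 39.9 CPM, a call lost without either mutant library. Cdkn2c was the member called higher in all 4 classes, and Ccnd2 was called lower in 3 of them.

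**Figure D5:**
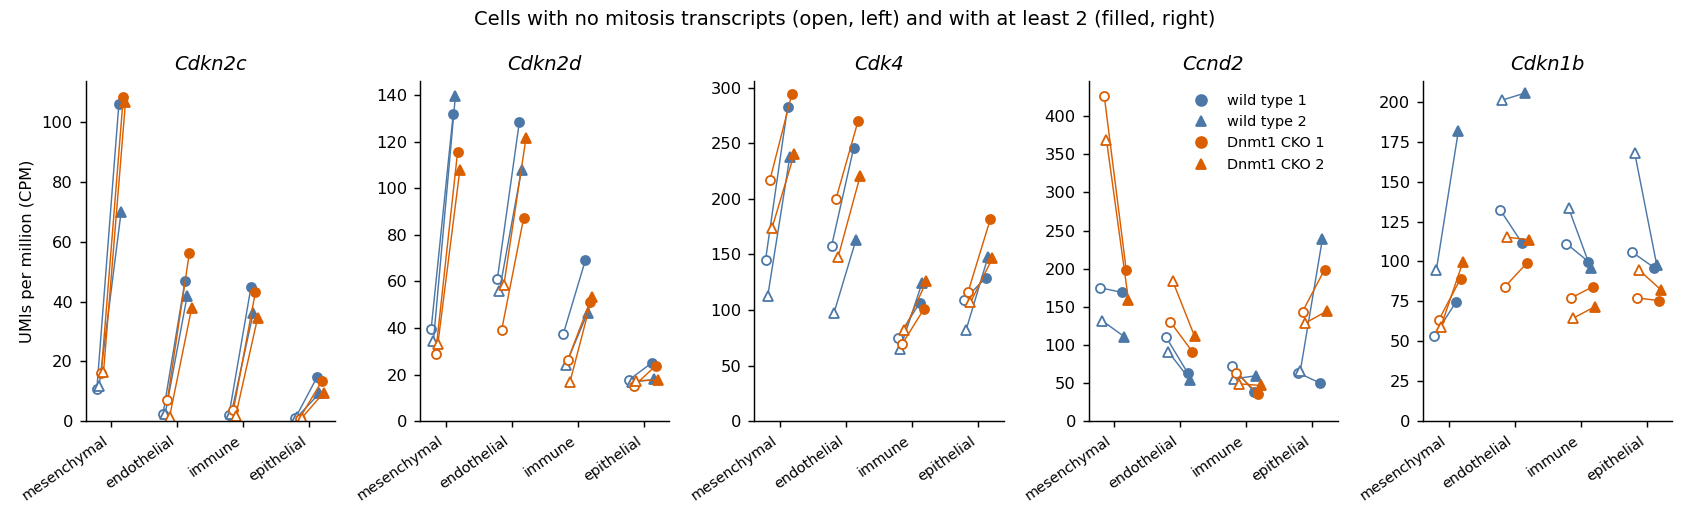
CPM in cells with no mitosis transcripts (open symbols) and with at least 2 mitosis genes detected (filled symbols), joined per library, for 5 members in 4 broad classes. Cdkn2c and Cdk4 are higher with mitosis transcripts in every library of the 4 classes (Cdk4 was not called in epithelial-like cells), and Ccnd2 falls in every mesenchymal-like and endothelial-like library.

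Other genes of the pathway were read from lists chosen with earlier results of these data known. They come from the same mesenchymal fit of edgeR (13.3% of genes called). Their calls and p-values are therefore a description and no test, and nothing is read from the counts. A list of 12 genes held Cdk2, its cyclins, Cip/Kip inhibitors and regulators such as Skp2 and Ccnh. Of these, 3 rose and none fell, with a median log2 difference of 0.45. Cdkn1a (p21), a p53-responsive Cdk2 inhibitor, was at 36.2, 47.6, 104 and 140 CPM (log2 difference 1.53, SE 0.217, edgeR adjusted p = 0.00266). Ccnh, the cyclin of the Cdk-activating kinase, rose by 0.77 (adjusted p = 0.0211) and Ccna2, the S-phase cyclin, by 1.08 (adjusted p = 0.0350). Of 19 pocket proteins, E2F factors and DREAM subunits, Lin9 rose by 0.97 (adjusted p = 0.0209) and the pocket protein Rbl2 fell by 0.96 (adjusted p = 0.0347), with a median of 0.14 over the list. A list of 21 genes joined cyclin D degradation and assembly genes with upstream factors, Trp53 and Mdm2 among them. In it Trp53 (p53) rose by 0.92 (edgeR adjusted p = 0.00994). Cryab, a small heat shock protein that partners Fbxo4 in cyclin D1 turnover, fell by 0.95 (edgeR adjusted p = 0.0279). The median over this list was 0.05. Of 20 mitosis genes, 14 rose and none fell, with a median of 1.01. Among these were Cdc20 (2.24, edgeR adjusted p = 0.00431), Ccnb1 (1.44, adjusted p = 0.00806), Nusap1 (1.26, adjusted p = 0.00994) and Top2a (1.21, adjusted p = 0.0119). Of the 72 pathway genes 21 were called in all, a number that fell to 6 without wild type 2 and to 9 without Dnmt1 CKO 1. By edgeR none was called in alveolar type 2-like, alveolar type 1-like, endothelial-like, immune-like or mesothelial-like cells. In these 5 classes 1 of 70, 1 of 49, 0 of 70, 0 of 71 and 7 of 56 tested had an unadjusted p under 0.05, and DESeq2 called 0. Of all genes, 3.43%, 5.38%, 3.93%, 4.79% and 10.5% had such a p.

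The genes most like each cyclin were ranked by Pearson correlation of log2(CPM + 1) over 48 sums (12 classes in 4 libraries) among 8964 genes with a mean of at least 10 CPM. For Ccnd1 these were Ppp1ca (r = 0.74), Lyve1 (0.73), Scarb1 (0.73), Snx3 (0.72) and Ncoa7 (0.72), and for all 5 the class with the highest mean was the capillary endothelial-like class, as for Ccnd1. For Ccnd2 they were Maged2 (0.85), Pkia (0.85), Ndn (0.83), Cd81 (0.83) and Itm2a (0.83). Of these, Maged2, Cd81 and Itm2a were highest in pericyte-like cells and Pkia and Ndn in mesothelial-like cells. The 48 points share 4 libraries and 12 classes and are not independent, so no p is given.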

How the data were processed

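RNA was measured in single cells of 4 E18.5 mouse lung libraries with 10x Genomics 3′ chemistry. The authors deposited UMI counts per gene and barcode, made with Cell Ranger 3.1.0 and bcl2fastq 2.20 on GRCm38.p6, and used Seurat, per the submitters' processing notes. Here barcodes with at least 500 genes and at most 20% mitochondrial counts were kept, likely doublets were removed with Scrublet at an expected rate of 6%, and cells were clustered on 2000 variable genes without the 10 members (30 components, 15 neighbours, Leiden resolution 1.0; scanpy 1.11.5, leidenalg 0.10.2). Clusters were named "-like" from 27 marker lists, with a subclass score of at least 1.6 that was set after the clusters were seen. Counts were summed per library and class and fitted over all genes with edgeR 4.0.16 (TMM factors, low-count filter, quasi-likelihood test, Benjamini-Hochberg, R 4.3.3). A class needed 20 cells in every library. DESeq2 1.42.0 was an alternative. Shares and mitosis states were read after thinning to 3000 UMIs, which leaves out shallower cells. The fits were tested on simulated counts.

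Members and gene lists were chosen with earlier results of these data known. All members are named, with up to 4 called genes of smallest adjusted p from each pathway list in mesenchymal-like cells and up to 2 in each other class, and the 5 genes most correlated with Ccnd1 and with Ccnd2. Replicate numbers are shared by the genotypes, but with 2 pairs and no label of a shared litter or day they were not taken as pairs.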

Additional observations from a re-analysis of the deposited data

Results flagged for a closer look

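Over the 6 classes compared (mesenchymal, alveolar type 2, alveolar type 1, endothelial, immune and mesothelial), 4 members differed in opposite directions, with both mutant libraries above both wild type libraries in one class and below them in another. The difference between classes was not tested, and non-overlap of this kind is common: it held for 57.4% of genes in mesenchymal-like cells, 27.1% in alveolar type 2-like cells, 32.5% in alveolar type 1-like cells, 28.2% in endothelial-like cells, 31.5% in immune-like cells and 42% in mesothelial-like cells. Ccnd2 had log2 differences of 1.21 in mesenchymal-like, 1.31 in alveolar type 2-like, 1.26 in alveolar type 1-like and 0.75 in endothelial-like cells, against -0.13 in immune-like cells. Cdk6 had 0.62 in alveolar type 1-like and 0.31 in alveolar type 2-like cells, against -0.44 in mesenchymal-like, -0.077 in immune-like and -0.62 in mesothelial-like cells. Cdkn2b had 1.08 in mesenchymal-like cells, from 28 and 63 UMIs, against -0.31 in alveolar type 1-like and -0.46 in alveolar type 2-like cells. Cdkn2d had 0.60 in mesothelial-like cells, against -0.48 in immune-like cells. Among the narrower classes, Ccnd1 had -0.51 without overlap in macrophage or monocyte-like cells, against 2.60 in mesenchymal-like cells.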

How the results depend on the processing

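Genotype results were recomputed under 13 alternatives and the mitosis split under 9 (7 in epithelial-like cells, where the stricter mitosis rule and 2000 UMIs left too few cells and were not run). No called result was recorded as reversed, but values without a call could change sign. The mean log2 ratio of Cdkn2b in mutant mesenchymal-like cells with over without Dazl was 0.099 (SD 0.126) at 3000 UMIs. At 2000 UMIs it was -0.20 (SD 0.363). Of the comparison-level values, 187 stayed within their limits and 17 moved. Of the others, 1122 stayed, 47 moved, 18 fell below and 7 passed the threshold. The Ccnd1 difference in mesenchymal-like cells ranged from 2.49 to 2.72 on the log2 scale, that of Ccnd2 from 0.99 to 1.46, and that of Ccnd2 in alveolar type 2-like cells from 1.01 to 1.55. Leaving out a library, which leaves 1 in a genotype to be assumed to vary like the other, gave 3 to 4 mesenchymal calls, against 4. Members called in alveolar type 2-like cells went from 0 to 1 (Ccnd2) without the low-count filter, with DESeq2 and with the replicate block, and from 0 to 1 over the fits that leave out a library. In alveolar type 1-like cells they went from 0 to 1 (Ccnd2) without the filter and with the replicate block, and from 0 to 1 leaving out a library. In immune-like cells leaving out a library gave 0 to 1. The 21 pathway genes called in mesenchymal-like cells ranged from 6 to 27 when a library was left out, those in alveolar type 2-like cells from 0 to 1, in immune-like cells from 0 to 7 (7 without Dnmt1 CKO 1) and in mesothelial-like cells from 0 to 3, with 1 there without the filter. The 2 epithelial calls of the mitosis split ranged from 1 to 4. Over all genes, 2153 were called in mesenchymal-like cells, 3457 without the filter and 3303 with the replicate block; without the filter the median of all genes in mesothelial-like cells shifted by 0.10. Samples with the same replicate number deviated together weakly (r from 0.052 to 0.22 over 6 classes); the block added Cdk4 to the 4 mesenchymal calls, making 5. The cause of these shifts was not tested. Counting error bounds rare genes: Cdkn2a had 2 UMIs in all wild type mesenchymal-like cells.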

Other observations

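Airway cells were too few for a fit. Secretory airway-like cells numbered 16, 39, 24 and 94 and had Ccnd2 at 306, 325, 447 and 292 CPM. Ciliated-like cells numbered 18, 53, 27 and 108 and had Ccnd2 at 374, 284, 376 and 293 CPM. In wild type both airway classes stood well above the alveolar classes in this cyclin, and no genotype comparison was made in them.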
